A study of Mus musculus with 2 samples.

Results

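Tbx2, Tbx3, Tbx4, Tbx5, Pitx1, Meis1, Meis2, Prrx1 and Prrx2 are transcription factor genes that give limb and connective tissue mesenchyme its positional identity. They were taken by symbol from the authors' deposited table, where all 9 have a row among 23227 gene symbols. PolyA-selected RNA was compared between a Dicer knockout line (KO, genotype Dicer -/-) and a line with floxed, intact alleles (WT, genotype Dicer f/f), each an immortalised line from a single clone of adult mouse mesenchymal stem cells. The labels also call both lines fibroblasts, and they were grown alike in Alpha-MEM with 10% fetal bovine serum and antibiotics. They list 1 sample per genotype, so a difference between the genotypes cannot be told apart from a difference between 2 clones. The labels do not name what deleted Dicer, what immortalised the cells or where in the body they came from. In bulk RNA, fewer cells of a type and less RNA per cell cannot be told apart.

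Dicer cuts microRNA precursors into mature microRNAs, which lower the stability and translation of messenger RNAs that pair with their seed. T-box factors bind DNA through a shared domain. Tbx5 is known for forelimb outgrowth and Tbx4 for that of the hindlimb, while Tbx2 and Tbx3 act mainly as repressors. Pitx1 specifies hindlimb identity and acts upstream of Tbx4. Meis1 and Meis2 mark the proximal limb and work with Pbx and Hox partners, and Prrx1 and Prrx2 are paired-type homeobox factors of limb and craniofacial mesenchyme.

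The deposited means resolved into the whole reads of 2 libraries per genotype, called here the deeper and the shallower one by their totals. The KO libraries held 15718369 and 14969532 reads in genes and the WT libraries 15369250 and 14135422. Across 11710 genes, log2 values correlated at r = 0.967 within KO and 0.958 within WT, and at 0.824 to 0.870 between genotypes. Levels are given as normalised reads, which are reads divided by the size factor of the library. Because the labels do not say how the libraries of a genotype relate, their spread may be technical. Dicer1 itself had 573 and 557 normalised reads in KO, against 804 and 943 in WT. Its ratio was 0.647, and its adjusted p in the authors' deposited table was 0.497. Whole-gene reads include exons that a deletion can leave in place, so they do not check the genotype labels.

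Of 11 mesenchymal stem cell markers, 10 averaged at least 20 normalised reads, and Thy1 had no read in any library. The summed level of that list was 32033 and 35324 in KO, against 31276 and 39920 in WT, and Itgb1 made the largest contribution. By the size rule given below, Vcam1 was higher in KO at a ratio of 2.81. Mcam was lower, with 63.5 and 107.5 normalised reads in KO, against 1541 and 3479 in WT, and its ratio of 0.0341 was 0.0555 without the shallower WT library. The fibroblast list summed to 211369 and 192550 in KO and to 218809 and 262660 in WT. Within it, Col3a1 was higher in KO at a ratio of 5.58 and Col1a1 and Col1a2 were lower at 0.432 and 0.486 (limma adjusted p of 0.0685 and 0.128), while Lum stayed at or below 1.12 in every library.

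Markers of other cell types were mixed. Cd3e, Epcam, Myod1, Pax7, Myh6 and Sox10 had no read, and Ptprc reached 1.99 at most. Other members of the same lists were present: Nes had 467 and 509 normalised reads in KO, against 669 and 673 in WT, and Cd14 had 191 and 168 in KO, against 122 and 123 in WT. Krt8, Des, Tubb3 and Cd68 averaged at least 20, and none of these 6 genes was called. Msln, a mesothelial surface protein, was higher with 164 and 408 normalised reads in KO, against 0.964 and 0 in WT, although Upk3b and Upk1b of the same list had no read in any library. The cardiac marker Tnnt2 had 12.0 and 47.8 in KO, against 3.86 and 23.5 in WT, and its call at a ratio of 2.18 was lost when the shallower KO library (0.873) or the deeper WT library (1.27) was left out. Nkx2-5, of the cardiac list too, had 31.3 and 7.96 in KO, against 3.86 and 2.24 in WT, and was below the mean needed for a test. The part of these marker genes in the differences given below was not tested.

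Meis1 and Meis2 are paralogues whose KO over WT ratios lay on opposite sides of 1, and their 3′ untranslated regions (UTRs) were searched for matches to microRNA seeds. Sites of 27 conserved microRNA families were searched for, each by the 7 bases that pair with the seed (bases 2 to 8). The regions are those of GENCODE M21 on GRCm38, read on the sense strand, and the mature microRNAs are from RefSeq, GRCm38.p6. Meis1 held sites of 10 families in 5687 bases and Meis2 sites of 8 families in 1486 bases, against a median of 3 families in 1220 bases over 10375 tested genes with such a region. Both genes held sites of the families of miR-22, miR-23, miR-103 and miR-199a-3p. The miR-23 and miR-199a-3p sites are shown as 2 of these 4, with capitals marking the seed of the microRNA and the matching bases of the UTR.
miR-23a-3p: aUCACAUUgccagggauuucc
Meis1, UTR bases 4143 to 4149: tttttaaaaaaAATGTGAaatttttccac
Meis2, UTR bases 490 to 496: acaagaacacaAATGTGAagcgacgggct
miR-199a-3p: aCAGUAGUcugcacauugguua
Meis1, UTR bases 5276 to 5282: atttaacaataACTACTGgattaagatga
Meis2, UTR bases 565 to 571: cgagagttataACTACTGtagcataaaca

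The AATGTGA match lay in the 3′ UTR of 17.1% of those genes and the ACTACTG match in that of 9.0%. Both miR-23 matches are followed by an A, which microRNA target sites often carry, and neither miR-199a-3p match is. Among the other members, Prrx1 held sites of 7 families in 4891 bases and Tbx4 of 5 in 1352. Pitx1 and Tbx5 held sites of 3 families each and Tbx2 and Tbx3 of 2 each, while Prrx2 held none in 321 bases. A match is a description of the sequence, since neither microRNA levels nor pairing were measured here.

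Reads were found for 8 of the 9 genes, and 5 of them, Pitx1, Meis1, Meis2, Prrx1 and Prrx2, averaged at least 20 normalised reads and were tested. A gene was called when its KO over WT ratio was at least 2 or at most 0.5 and the 95% exact (Clopper-Pearson) interval excluded 1. Intervals cover counting error only and leave out variation between libraries and between clones. Because reads are not independent molecules, the intervals may be too narrow even for counting error. Meis2 was called lower in KO and no member was called higher. Over all tested genes, 8.92% were called higher and 8.56% lower. The authors' deposited table, read at an adjusted p under 0.1, likewise called Meis2 alone among the tested members, against 5.56% of tested genes called higher and 5.34% lower. With limma at an adjusted p under 0.05, none of the 5 passed, against 4.61% of tested genes higher and 4.14% lower. At an unadjusted p under 0.05 Meis2 alone passed, and 14.9% of all tested genes were higher and 14.2% lower there, so 1 of 5 is near the background. Pitx1 and Meis2 were lower in each KO library than in either WT library and Meis1 was higher in each, while Prrx1 and Prrx2 overlapped. Over all tested genes these shares were 28.8% below and 30.4% above. The median log2 ratio of the 5 was -0.34, and that of all tested genes -0.01.

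**Figure D1:**
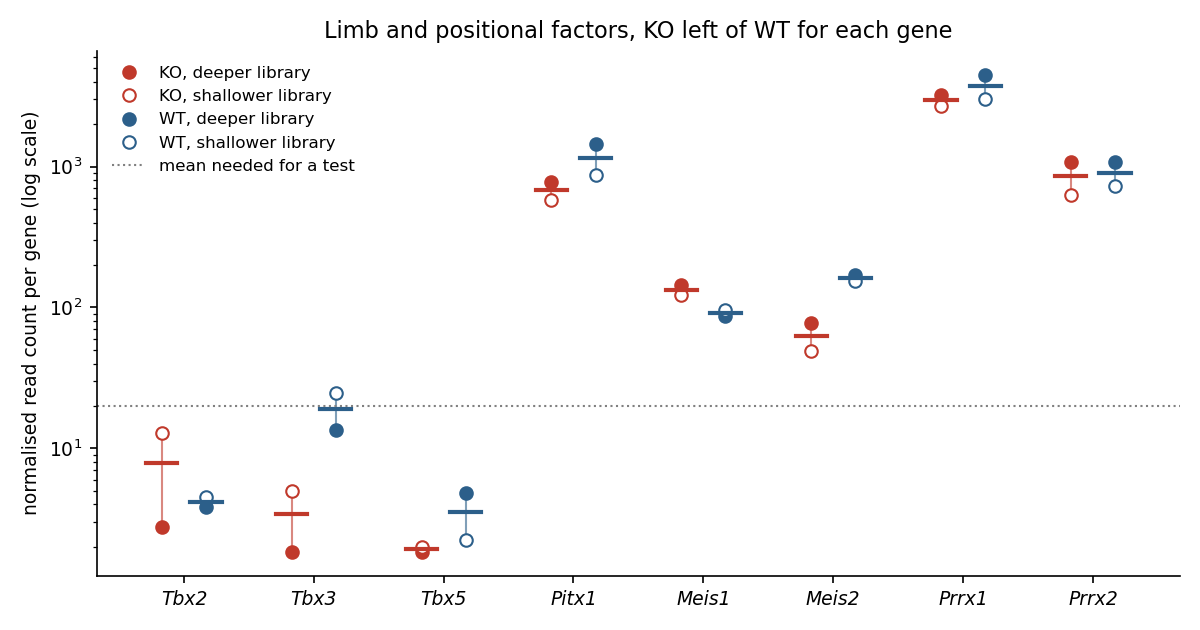
Normalised reads per library on a log axis for each of the 8 members with reads, with a bar at the mean, a filled point for the deeper and an open one for the shallower library of KO and WT and a dotted line at the mean of 20 needed for a test. Meis2 and Pitx1 points of KO sit below those of WT, Meis1 points of KO sit above, and Prrx1 and Prrx2 overlap.

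The T-box members were barely expressed. Tbx4 had no read in any of the 4 libraries, where 3 reads, the limit that a count of 0 allows, equal between 2.76 and 3.36 normalised reads. Tbx5 had 1.84 and 1.99 normalised reads in KO, against 4.82 and 2.24 in WT, which came from 4 reads in KO and 7 in WT. Its ratio of 0.542 had an interval of 0.116 to 2.13, so no difference was detectable at this depth, and it was 0.854 when the deeper WT library was left out. Both genes known for limb outgrowth thus stayed at 5 reads or fewer in every library.

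Tbx2 had 2.76 and 12.9 normalised reads in KO, against 3.86 and 4.48 in WT. The genotypes overlapped, because the KO libraries lay on either side of both WT values. The ratio was 1.88 (interval 0.760 to 5.08), and it became 0.662 when the shallower KO library was left out and 3.10 when the deeper one was.

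Tbx3 was the T-box member with the widest gap. It had 1.84 and 4.98 normalised reads in KO, against 13.5 and 24.7 in WT, from 7 reads in KO and 36 in WT. Both KO values lay below both WT values, and the ratio was 0.179 (interval 0.0671 to 0.407), or 5.60-fold lower in KO. Its mean of 11.2 normalised reads stayed under the minimum for a test, and in the authors' deposited table its p was 0.0475 and its adjusted p 0.340. The ratio was 0.0964 without the shallower KO library.

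Pitx1 was well expressed. It had 774 and 584 normalised reads in KO, against 1447 and 877 in WT, with both KO values below both WT values. The ratio was 0.585 (interval 0.547 to 0.625), or 1.71-fold lower in KO, which did not reach the fold of 2. The authors' deposited table gives an adjusted p of 0.515, and limma gave a log2 difference of -0.74 with a standard error of 0.31 and an adjusted p of 0.195. Without the shallower WT library the ratio was 0.470, which passed the size rule. It was 0.775 without the deeper WT library and 0.667 without the shallower KO library, neither of which passed. Tbx4, which Pitx1 is known to act upstream of, had no read in either line.

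Meis2 fell in KO to 77.3 and 48.8 normalised reads, against 169.7 and 154 in WT. The values of the genotypes stood clear of each other, with the lowest WT value well above the highest KO value. The ratio of means, 63.0 in KO over 162 in WT, was 0.390 (interval 0.316 to 0.479), or 2.56-fold lower in KO. Its adjusted p in the authors' deposited table was 0.0742, and limma gave a log2 difference of -1.38 with a standard error of 0.34 and an adjusted p of 0.0762. The direction was the same with each library left out in turn, at ratios of 0.302 to 0.478.

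Meis1 lay the other way. It had 144 and 123 normalised reads in KO, against 86.8 and 95.3 in WT, with both KO values above both WT values. The ratio was 1.47 (interval 1.21 to 1.79). The authors' deposited table gives an adjusted p of 0.786, and limma gave 0.254. Meis1 therefore passed neither the size rule nor a test over libraries.

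Per kilobase of annotated exon, Meis1 averaged 17.7 and Meis2 14.5 normalised reads in KO, against 12.1 for Meis1 and 37.2 for Meis2 in WT. Meis1 made up 51.8% and 59.3% of the sum of both in the KO libraries, against 22.7% and 26.3% in the WT libraries. On the length of the longest transcript in place of all exons, these shares were 47.9% and 55.5% in KO and 20.1% and 23.4% in WT. The log2 difference of Meis1 over Meis2 per kilobase was 0.31 in KO and -1.62 in WT, so it was 1.93 higher in KO, a difference that does not depend on the lengths used. With 2 libraries on each side, the exact two-sided permutation p was 0.333, which is the smallest that this design can give.

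**Figure D2:**
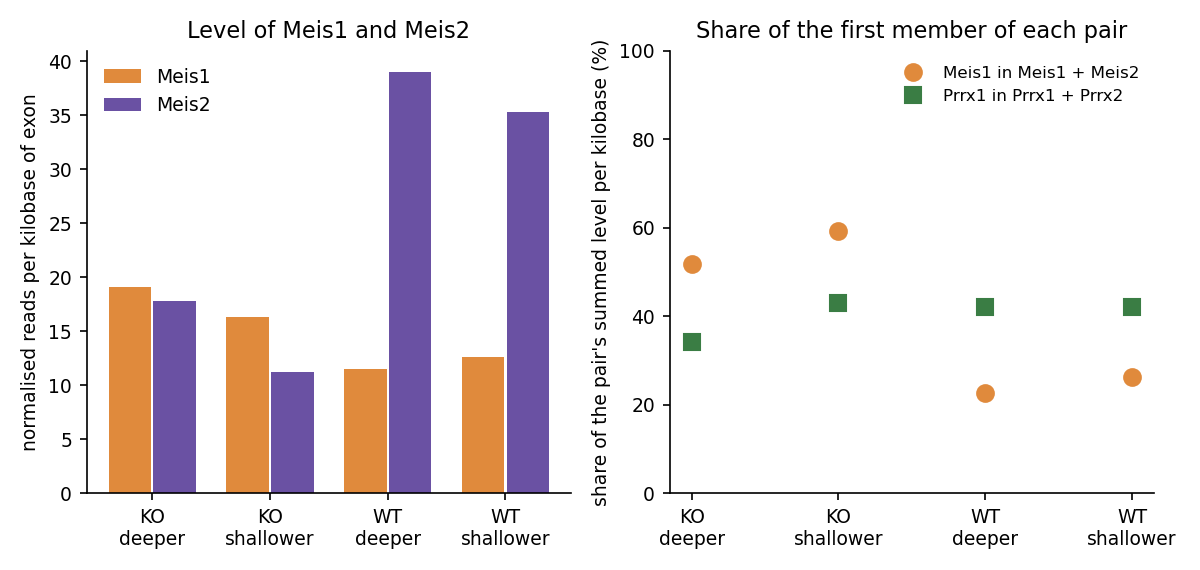
Left, bars of normalised reads per kilobase of exon for Meis1 and Meis2 in each library; right, the share of the first gene in the summed level per kilobase of each paralogue pair, in percent, with a point for each library. Meis1 makes up 51.8% and 59.3% of the Meis pair in KO and 22.7% and 26.3% in WT, while the Prrx1 share of the Prrx pair overlaps between KO and WT.

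The genes whose 4 library values most resembled those of Meis2 were Lmf1, Rcan2 and Sh2b2, by the Euclidean distance of log2 values centred on the mean of each gene. Their distances over the 4 libraries were 0.071, 0.094 and 0.099. Lmf1, a lipase maturation factor, had 133 and 86.6 normalised reads in KO, against 284 and 275 in WT. Rcan2 regulates calcineurin and had a ratio of 0.406, and Sh2b2, a signalling adaptor, had one of 0.365. Adjusted p-values in the authors' deposited table were 0.0332 for Lmf1, 0.0542 for Rcan2 and 0.132 for Sh2b2. Because these genes were picked for their likeness to Meis2, their lower values in KO follow from that choice. Their ratios and p-values are therefore a description only.

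Prrx1 had the most reads of the 9 members in both lines. It had 3218 and 2701 normalised reads in KO, against 4506 and 3009 in WT, and the deeper KO library lay between the WT values. The ratio was 0.788 (interval 0.761 to 0.815), the adjusted p in the authors' deposited table was 0.863, and limma gave 0.459. The ratio was 0.984 without the deeper WT library.

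Prrx2 had 1083 and 629 normalised reads in KO, against 1082 and 728 in WT. In both lines the deeper library was the higher, and the deeper libraries were nearly equal. The ratio was 0.946 (interval 0.886 to 1.01), and the authors' deposited table gives an adjusted p of 1. Leaving out the shallower KO library gave 1.20 and leaving out the deeper WT library 1.18, so no direction is given. The Prrx1 share of the pair per kilobase was 34.2% and 42.9% in KO, against 42.2% and 42.0% in WT, with an exact two-sided permutation p of 1.

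Per kilobase of exon, the order of levels in KO was Prrx2 at 497, Prrx1 at 301, Pitx1 at 256, Meis1 at 17.7 and Meis2 at 14.5 normalised reads. In WT it was Prrx2 at 525, Pitx1 at 437, Prrx1 at 382, Meis2 at 37.2 and Meis1 at 12.1. The T-box members came last in both lines, none above 3.67. In KO, the ranges over the libraries overlapped for Prrx1 and Pitx1 and for Meis1 and Meis2. Within each KO library, however, Prrx1 lay above Pitx1 and Meis1 above Meis2. In WT, the ranges of Prrx2, Pitx1 and Prrx1 overlapped, but each library gave them in that order. Meis2 lay above Meis1 in both WT libraries. On the length of the longest transcript, Prrx1 came before Pitx1 in WT as well, at 576 against 474. On that length, Meis1 lay below Meis2 in the deeper KO library, at 47.9% of the pair.

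**Figure D3:**
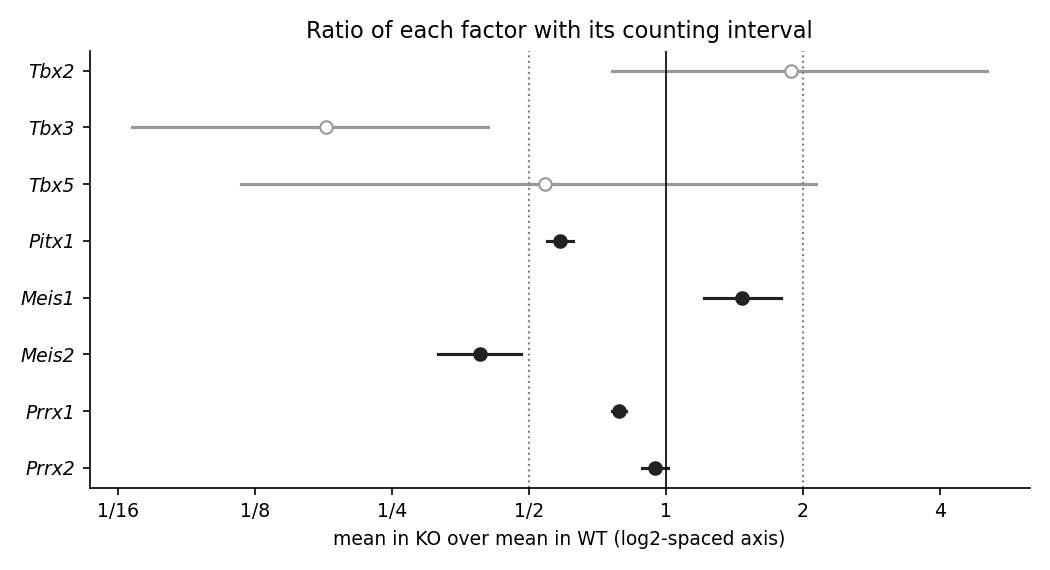
KO over WT ratio of each member on a log2 axis, with lines for the 95% counting interval, dotted lines at ratios of 0.5 and 2, filled points for the 5 tested genes and open grey points for genes below the mean needed for a test. Meis2 at 0.390 has its whole interval below 0.5, and Pitx1 at 0.585 lies between 0.5 and 1. Tbx2, Tbx5 and Prrx2 have intervals that cross 1.

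Lists of related genes were set beside the members, and 40 distinct genes of them were tested. Of these, 5 were called higher and 12 lower in KO, which is 12.5% and 30.0%, against 8.92% and 8.56% of all tested genes. For every gene, the minimum of 20 normalised reads was set on the mean over both genotypes. A gene low in KO could therefore be tested through its WT reads alone, and the reverse. Among the called list genes, Msx1, Msx2, Dlx6 and Hey2 averaged under 20 in KO, and Aldh1a2 did in WT. The lists were chosen with earlier results of these data known, so their shares are a description only. With limma at an adjusted p under 0.05, 2 of the 40 were higher and 6 lower, and the calls of Pbx2, Dlx5, Dlx6, Lhx9, Twist2, Grem1, Bmp4, Rspo2 and Cyp26b1 were lost. At a fold of 3, those of Pbx2, Twist2, Lhx9, Grem1, Rspo2 and Cyp26b1 were lost. Among the 13 further T-box genes, 3 were tested and none was called. Tbx15, a factor of limb and trunk mesenchyme, had 4065 and 3027 normalised reads in KO, against 3147 and 2204 in WT, which overlapped. Tbx18 had 1161 and 1017 in KO, against 1671 and 1365 in WT, at a ratio of 0.717. 

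Among the TALE homeobox relatives and partners of Meis, 8 of 9 were tested, and Pbx2 and Pbx3 were called higher, while none was called lower. Both encode Pbx proteins, which bind DNA together with Meis and Hox factors. Pbx3 had 1265 and 1072 normalised reads in KO, against 325 and 259 in WT, at a ratio of 4.0 (interval 3.65 to 4.39). Pbx2 had 1139 and 854 in KO, against 494 and 352 in WT, at a ratio of 2.36. Their adjusted p-values in the authors' deposited table were 9.07e-06 and 0.0191. With limma the adjusted p was 0.0146 for Pbx3 and 0.0564 for Pbx2, which ends the Pbx2 call. Meis3 had a ratio of 1.35 and was not called. The median log2 ratio of the list was 0.49.

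The paired-type homeobox relatives gave 1 tested gene of 12, Shox2, a proximal limb factor, at a ratio of 0.791 and not called. Of 24 limb patterning factors in the table, 14 were tested, 1 was called higher and 6 lower, with a median log2 ratio of -0.57. Msx2, a homeobox factor of limb and skull mesenchyme, had 2.76 and 1.99 normalised reads in KO, against 212 and 165 in WT, or 79.3-fold lower in KO. Its ratio of 0.0126 came from only 5 reads in KO and 367 in WT, with an interval of 0.00407 to 0.0297, so the size of the fold is uncertain. Its paralogue Msx1 had a ratio of 0.163. The linked homeobox genes Dlx5 and Dlx6, which act in skeletal and limb development, had ratios of 0.171 and 0.113, and the authors' deposited table gives Dlx5 an adjusted p of 0.273. Leaving out the deeper KO library gave 0.103 for Dlx5 and 0.049 for Dlx6. Dlx5 stood at 0.307 when the deeper WT library was left out, and Dlx6 at 0.176 when the shallower KO library was.

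Emx2, a homeobox factor needed for the shoulder blade, had 53.3 and 58.7 normalised reads in KO, against 315 and 416 in WT. Twist2, a mesenchymal bHLH factor, was the factor called higher, with 509 and 499.5 in KO, against 266 and 157 in WT. Its ratio of 2.38 became 1.89 without the shallower WT library, which ends the call. Lhx9 was called lower at 0.464, but its libraries overlapped, with 100.3 and 24.9 normalised reads in KO, against 215 and 54.9 in WT. The ratio of Lhx9 was 0.184 when the deeper KO library was left out and 0.743 when the shallower one was. It was 1.14 when the deeper WT library was left out and 0.291 when the shallower one was.

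Limb signals, the ligands and enzymes that position these factors, gave 6 tested genes of 14, of which 2 were called higher and 4 lower, with a median log2 ratio of -1.42. Wnt5a, a ligand of limb outgrowth, had 21.2 and 38.8 normalised reads in KO, against 483 and 517 in WT, at a ratio of 0.0600. Bmp4 had a ratio of 0.238, or 0.374 without the deeper WT library, and an adjusted p of 0.188 in the authors' deposited table. Aldh1a2, which makes retinoic acid, had 430.5 and 174 in KO, against 27.0 and 12.3 in WT. Cyp26b1, which breaks retinoic acid down, lay the other way with 173 and 84.6 in KO, against 437 and 319.5 in WT, with a limma adjusted p of 0.0838. Retinoic acid is known to induce Meis genes in the proximal limb. A link between these enzymes and Meis1 or Meis2 in these lines was not tested.

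The Aldh1a2 ratio of 15.4 was 8.86 when the deeper KO library was left out and 24.5 when the deeper WT library was. Cyp26b1, at a ratio of 0.341, moved to 0.457 with the shallower KO library dropped and to 0.224 with the deeper one dropped. Dropping the deeper WT library gave Cyp26b1 a ratio of 0.403, and its call by the size rule was kept each time. Grem1, a BMP antagonist, was called higher at 2.16, with an adjusted p of 0.643 in the authors' deposited table. Its ratio was 5.92 without the deeper WT library and lost its call at 1.72 when the deeper KO library was left out and at 1.32 when the shallower WT library was. Rspo2, a Wnt enhancer of limb outgrowth, was called lower at 0.408 with overlapping libraries. Its ratio was 0.163 when the deeper KO library was left out, and its call was lost at 0.653 when the shallower KO library was left out and at 0.784 when the deeper WT library was.

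Genes published as downstream of the members gave 8 tested of 13, with none called higher and 2 lower, and a median log2 ratio of -0.24. Tnc, the matrix protein tenascin C, which Prrx1 is known to activate, had 1063 and 444 normalised reads in KO, against 52497 and 35757 in WT, or 58.6-fold lower in KO. Without the deeper KO library its ratio of 0.0171 was 0.010, and without the shallower one it was 0.0241. Hey2, a Notch effector, had 1.84 and 0.995 in KO, against 42.4 and 159 in WT, with an adjusted p of 0.107 in the authors' deposited table. Its ratio of 0.0141 came from only 3 reads in KO and 186 in WT, with an interval of 0.00287 to 0.0417. That ratio was 0.009 without the deeper WT library and 0.033 without the shallower one. Cdkn2a and Cdkn1a, cell cycle inhibitors that Tbx2 and Tbx3 are known to repress, had ratios of 1.1 and 1.19 and were not called.

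**Figure D4:**
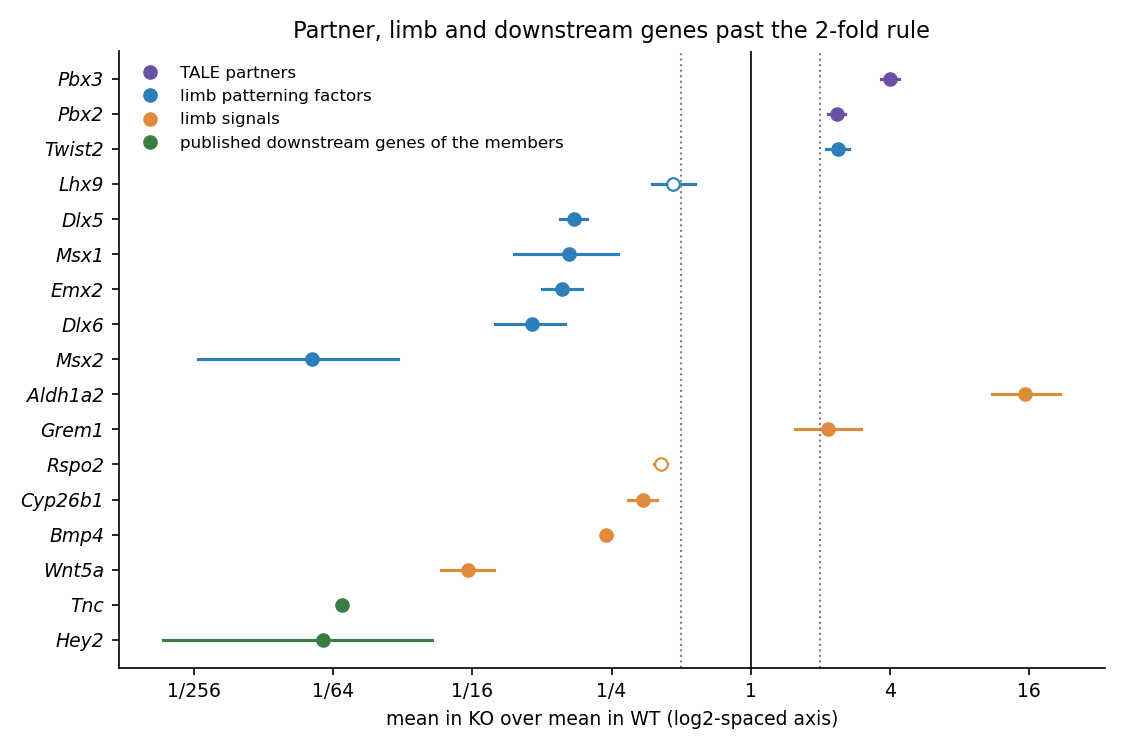
KO over WT ratio of the 17 called list genes on a log2 axis, 1 row per gene and coloured by list, with lines for the 95% counting interval and open points where KO and WT libraries overlap. Pbx2 and Pbx3 lie to the right at 2.36 and 4.0, and Msx2, Tnc and Hey2 lie furthest to the left.

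Some of these counts share sequence space with other genes. In GENCODE M21, antisense genes overlap Tbx3, Pitx1, Meis1 and Prrx1, and other noncoding genes on the same strand overlap Pitx1, Meis1 and Prrx1. None of them has a row under its symbol in the deposited table. The sources used here do not say whether counting used the strand, so reads from antisense partners cannot be told apart from those of the members, and reads from same-strand partners could not be separated by strand at all. No annotated gene overlaps Meis2.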

How the data were processed

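PolyA RNA of 1 KO and 1 WT sample was sequenced in pairs of 50-base reads, per the labels. DESeq 1.10.1, TopHat 1.4.0 and the build mm9 stand in the submitters' processing notes; how reads were counted, and on which annotation, is not given in the sources used here. The authors deposited a signal for every gene, mean reads divided by size factors, with the KO over WT ratio (fold), its log2 value and p-values, per the file headers. Condition A was taken to be WT and condition B KO, because the comparison's title names them in that order; the values played no part, and every direction rests on it. Each mean was resolved into the whole reads of 2 libraries, with exactly 1 solution for 100% of 16350 KO and 16386 WT genes. The design had assumed 1 library per genotype; it was kept, and fits over libraries were chosen after seeing the data.

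The size rule, the authors' adjusted p (read at 0.1) and limma 3.58.1 in R 4.3.3 on log2(normalised reads + 1) with a mean trend (Benjamini-Hochberg, 0.05) ran over 11710 genes averaging at least 20 normalised reads. A fold on that log2 scale understates changes of low genes. Steps were tested on simulated data. Python 3.11.15, scipy 1.17.1 and matplotlib 3.10.9 were used. All members were named, with every called list gene and, for the called member, the 3 nearest genes. The members and lists were chosen with earlier results of these data known.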

Additional observations from a re-analysis of the deposited data

How the results depend on the processing

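Alternatives were another normalisation, no or a stricter minimum, folds of 1.5 and 3, each library left out, and limma. Over the members, 85 of 95 values kept direction and call, 4 weakened, 3 became called and 3 reversed. Over list genes the numbers were 175 of 221 kept, 45 weakened and 1 reversed. Settings that change only the minimum or the fold leave the ratio as it is, so no direction could change there. Members under the minimum could be called only without a minimum. The kept values therefore include many that were fixed in advance and do not measure robustness. Genes called higher numbered 2030 at a fold of 1.5 and 551 at a fold of 3, and genes called lower 2092 and 532. Without a minimum 1571 were lower, and with a minimum of 100 normalised reads 622 were. With limma at pseudocounts of 1, 0.5 and 5, 540, 534 and 541 genes were higher and 485, 484 and 500 lower, and at an unadjusted p under 0.05 with a pseudocount of 1 the numbers were 1741 and 1658. Members called lower were 2 without a minimum and at a fold of 1.5, 0 at a fold of 3, 0 with limma at each pseudocount, and 1 to 2 with a library left out; the authors' deposited table at 0.05 called 0. The Meis2 ratio of 0.390 missed a fold of 3, and limma gave ratios of 0.384, 0.382 and 0.400 with adjusted p of 0.0762, 0.0770 and 0.0741. Dicer1 at 0.647 passed a fold of 1.5. List genes called higher were 2 at a fold of 3, 2 with limma at each pseudocount and 3 to 7 with a library left out, and those called lower 7 with the minimum of 100 and 6 with limma at each pseudocount. Leaving out a library gave ratios of 0.662 to 3.10 for Tbx2, 0.695 to 1.20 for Prrx2 and 0.184 to 1.14 for Lhx9, with a change of direction in each. Scaling by total reads or by the upper quartile moved the median log2 ratio to 0.06 and -0.05 and the share of calls that were higher to 55.2% and 47.4%. Where calls changed, the cause was not tested. No paired analysis was possible because the labels give no replicate numbers. The depth limits Tbx2, Tbx3, Tbx4 and Tbx5, whose reads were too few for a test.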

Other observations

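Among list genes under the minimum for a test, the paired-box factor Pax9 and the limb homeobox factor Lhx2 were low in KO. Pax9 had 1.84 and 1.99 normalised reads in KO, against 33.7 and 23.5 in WT, with an adjusted p of 0.0196 in the authors' deposited table. Lhx2 had 0.920 and 0.995 in KO, against 18.3 and 13.5 in WT, with an adjusted p of 0.145 there. Both were chosen after their values were seen.

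Of the protein-coding genes next to the members on the chromosome, BC052040, the neighbour of Meis2, had 352 and 363 normalised reads in KO, against 120.5 and 223 in WT. Its ratio of 2.08 was called higher, but limma gave an adjusted p of 0.1205, and the ratio was 1.60 when the deeper WT library was left out, which ends the call. Neighbours of Meis1 had ratios of 1.32 for Etaa1 and 1.38 for Spred2, which lie 926 and 905 kilobases away. Those of Tbx3 and Tbx5 had ratios of 1.55 for Med13l, 905 kilobases away, and 1.25 for Rbm19. Other tested neighbours above 1 were Ptges of Prrx2 at 1.65, Bcas3 of Tbx2 at 1.45, and Brip1 of Tbx4 and Gorab of Prrx1 at 1.15 each. H2afy of Pitx1 at 0.753 and Asb6 of Prrx2 at 0.796 lay below 1. None of these was called.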
